A study of Homo sapiens with 27 samples.

Results

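The genes described here are the EGF family ligands and receptors of U2OS cells, an established human osteosarcoma line, together with one cytoplasmic inhibitor of the receptors. They were chosen by name, as 10 listed symbols, and all 10 were found among the 55882 gene symbols of each of the 27 count files. The set holds 3 receptors (EGFR, ERBB2 and ERBB3), 6 ligands (AREG, EREG, HBEGF, TGFA, BTC and NRG1) and 1 inhibitor (ERRFI1). Poly(A) RNA was sequenced from 3 stable U2OS lines, each at 3 densities, with 3 biological replicates in each of the 9 groups. All lines had been transduced with a pLKO.1 vector and selected with puromycin. The pLKO.1 control, which the sample titles call WT, carried the blank vector. MMP2sh1 and MMP2sh2, titled MMP2KD, carried different short hairpin RNAs against MMP2. That gene encodes a matrix metalloproteinase that the study examines as a protease of the histone H3 tail. The lines were not stated to be single clones, and no parental cells without vector entered the comparisons. Cells were collected when subconfluent (day −2, labelled proliferating), at confluence (day 0) and when overconfluent (day +2), so that density and days in culture cannot be told apart.

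EGF family ligands are made as membrane-anchored precursors that proteases of the ADAM family cut from the cell surface. AREG, EREG, HBEGF, TGFA and BTC bind EGFR, and EREG, HBEGF and BTC also bind ERBB4. NRG1, a neuregulin, binds ERBB3 and ERBB4, whereas ERBB2 has no known soluble ligand and serves as the preferred partner of the other receptors. ERBB3 has a weak kinase and signals to PI3 kinase through its partners. ERRFI1, also called MIG6, binds the kinase domain of active receptors and blocks it, and its own gene is induced by ERK signaling. In bone, EGFR ligands act on osteoblast precursors, and AREG is a target of parathyroid hormone in osteoblasts. In the GRCh37 annotation, EGFR spans 55086710 to 55279321 of chromosome 7, ERBB2 37844167 to 37886679 of chromosome 17, and ERBB3 56470583 to 56497289 of chromosome 12. TGFA spans 70674416 to 70781325 of chromosome 2, HBEGF 139712428 to 139726188 of chromosome 5, and ERRFI1 8064464 to 8086369 of chromosome 1. Reads were counted over the exons of each gene.

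The libraries held 33580129 to 59374327 reads on genes (median 40075178), and mitochondrial genes took 4.16% to 7.15% of them. MMP2 itself was lower in every knockdown library than in any control library of the same stage. It was 5.78-, 5.53- and 5.05-fold lower in MMP2sh1 at the subconfluent, confluent and overconfluent stages, and 1.62-, 2.08- and 1.76-fold lower in MMP2sh2, so that MMP2sh2 was the milder depletion at each stage. Of the osteoblast and mesenchymal markers, RUNX2, COL1A1 and VIM each had a median over 10 CPM, the read count scaled to the size of the library, whereas SP7, COL1A2 and BGLAP each had a median under 1 CPM. Of 5 epithelial markers, the keratins KRT8 and KRT18 were also over 10 CPM, EPCAM had a median of 4.97 CPM, and CDH1 and KRT19 were under 1 CPM, at 0.754 and 0. The 3 blood and 3 neural markers and 1 of 2 endothelial markers each had a median under 1 CPM. Because these are bulk samples, fewer cells of a type and less RNA per cell cannot be told apart in any result below.

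Per kilobase of exon, the most abundant members of the family in subconfluent control cells were ERBB2 (15.3 ± 0.337 CPM per kb, SD, n = 3) and ERRFI1 (11.2 ± 0.657). HBEGF was the leading ligand at this stage with 5.44 ± 0.352 CPM per kb, ahead of EGFR (2.43 ± 0.0758), TGFA (1.59 ± 0.138) and ERBB3 (1.49 ± 0.00749). NRG1, AREG, EREG and BTC followed, and BTC was the lowest at 0.0775 ± 0.0697 CPM per kb. In overconfluent control cells the order of the ligands was different. TGFA stood at 16.1 ± 1.87 CPM per kb and ERBB2 at 11.1 ± 0.240, while EREG (2.59 ± 0.228) and HBEGF (2.12 ± 0.273) lay near EGFR (2.65 ± 0.251), and NRG1 was the lowest of the 10 at 0.0939 ± 0.0124 CPM per kb. ERRFI1 was the highest of the 10 at 38.1 ± 1.42 CPM per kb. The length used is the union of all annotated exons, which understates genes with many rarely used exons. The union was longest relative to the longest transcript for ERBB2 (10321 against 4930 bases), followed by ERBB3, NRG1 and EGFR. Per kilobase of the longest transcript, ERBB2 was above TGFA in overconfluent control cells (23.2 and 19.2 CPM per kb), and ERBB3 was above TGFA in subconfluent ones (2.79 and 1.90), so the order of TGFA and these receptors depends on the length used. By the same length, EGFR (4.27) was further above EREG (3.20) and HBEGF (2.69) in overconfluent control cells.

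**Figure D1:**
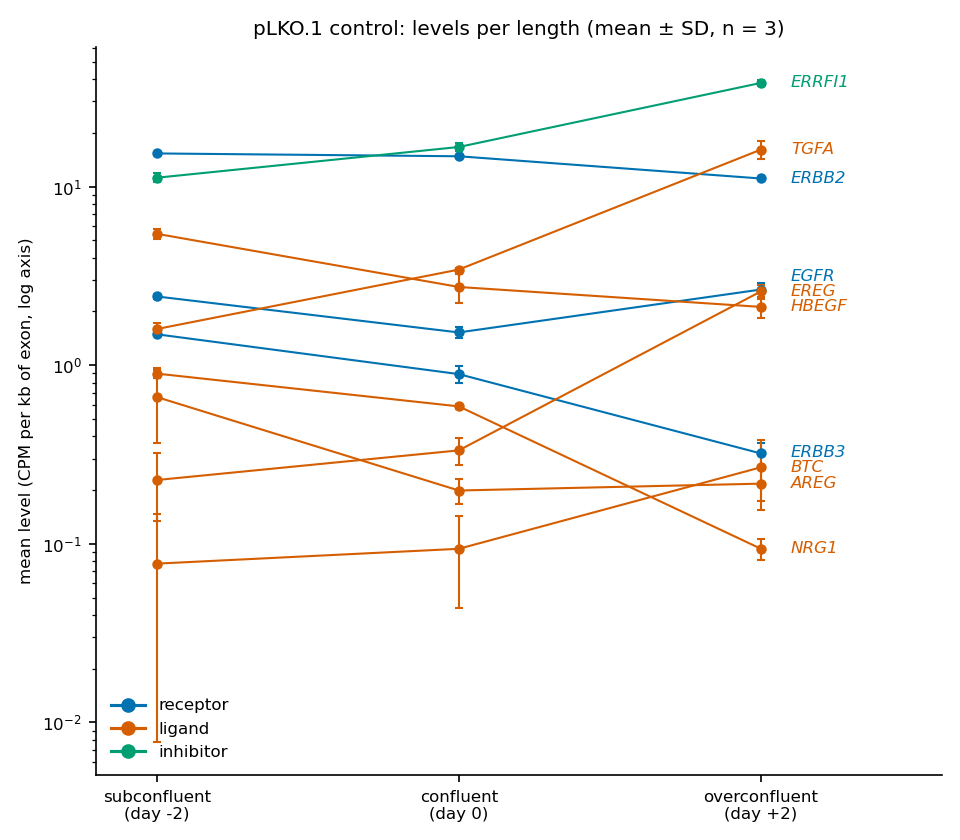
Mean level of each gene in the pLKO.1 control (vertical axis, CPM per kilobase of exon, log scale, bars SD of 3 libraries) at 3 stages (horizontal axis), colored by role. HBEGF leads the ligands in subconfluent cells at 5.44 CPM per kb, and TGFA leads them in overconfluent cells at 16.1 CPM per kb.

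Of the 6 relatives outside the list, ERBB4 and EPGN had the fewest reads. ERBB4, the remaining receptor of the family, had 1 to 30 reads per library, and EPGN, another EGFR ligand, had 0 to 10 reads and no read in 14 libraries. EGF had 47 to 123 reads, NRG2 46 to 144, NRG4 44 to 153 and NRG3 163 to 432. NRG3, another neuregulin, was at 1.20 ± 0.140 CPM per kb in subconfluent and 1.74 ± 0.123 in overconfluent control cells. Per kilobase of exon these means were higher than those of NRG1 at both stages. In subconfluent control cells this order rests on the correction for length, since NRG1 had more reads (19.2 against 6.24 CPM). Per kilobase of the longest transcript, NRG1 and NRG3 were there close, at 1.53 and 1.64. AREG and BTC were themselves thin, with 10 to 147 and 1 to 50 reads, and their changes are accordingly imprecise. AREG also has a near-identical copy listed as AREGB, with 0 to 11 reads. Because the counting dropped reads with more than one alignment, the level of AREG is uncertain.

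The ligand genes EREG, AREG and BTC lie along one stretch of chromosome 4 (GRCh37), EREG at 75230862 to 75254466 and AREG at 75310853 to 75320722, both on the plus strand, and BTC at 75669969 to 75719733 on the minus strand. The promoters of 4 ligands are shown because EREG and TGFA rose while AREG and HBEGF fell as the control cells expanded, with values given below. Each sequence is the 250 bases before the annotated transcription start, on the strand of the gene, from RefSeq (GRCh38.p14). Such windows were taken for 8 of the 10 genes, and ERBB3 and NRG1 were left out. EREG is taken from chr4:74364895-74365144 (plus strand), AREG from chr4:74444886-74445135 (plus strand), TGFA from chr2:70553827-70554076 (minus strand, the first of 2 annotated starts) and HBEGF from chr5:140346604-140346853 (minus strand). Capitals mark matches, on either strand, to a TATA box (TATAAA), the AP-1 site (TGANTCA), the cyclic AMP response element (TGACGTCA) or the TEAD core (CATTCC).
EREG: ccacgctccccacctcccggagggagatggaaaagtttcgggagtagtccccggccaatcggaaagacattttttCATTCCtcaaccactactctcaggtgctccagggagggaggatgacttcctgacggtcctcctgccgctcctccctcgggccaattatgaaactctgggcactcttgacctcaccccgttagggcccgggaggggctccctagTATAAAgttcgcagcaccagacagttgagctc
AREG: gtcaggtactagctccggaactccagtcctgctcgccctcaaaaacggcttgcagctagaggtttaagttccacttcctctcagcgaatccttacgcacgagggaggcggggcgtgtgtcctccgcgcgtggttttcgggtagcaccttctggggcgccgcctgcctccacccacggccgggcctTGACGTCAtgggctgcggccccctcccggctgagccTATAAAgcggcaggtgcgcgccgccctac
TGFA: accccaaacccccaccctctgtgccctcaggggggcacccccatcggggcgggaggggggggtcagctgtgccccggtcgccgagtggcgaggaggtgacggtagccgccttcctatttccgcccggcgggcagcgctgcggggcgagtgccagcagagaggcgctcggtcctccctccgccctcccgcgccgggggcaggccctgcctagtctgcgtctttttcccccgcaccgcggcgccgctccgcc
HBEGF: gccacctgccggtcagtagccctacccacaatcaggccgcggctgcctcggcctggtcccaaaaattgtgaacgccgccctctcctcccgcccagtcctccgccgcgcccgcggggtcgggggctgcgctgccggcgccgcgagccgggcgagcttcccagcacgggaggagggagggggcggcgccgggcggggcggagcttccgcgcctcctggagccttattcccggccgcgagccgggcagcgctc
Both EREG and AREG had a TATA box close to the start, at −32 to −27 and −29 to −24, counted back from the start. AREG alone of the 4 had the cyclic AMP response element, at −65 to −58, and EREG alone had the TEAD core, at −175 to −170. TGFA and HBEGF had none of these letters and a GC content of 75.6% and 76.4%, against 58% for EREG and 65.2% for AREG. In all 35116 promoter windows of this length, the TATA box was found in 10.7%, the AP-1 site in 6.57%, the cyclic AMP element in 1.65% and the TEAD core in 11.9%. None of these matches overlapped another, and a match is a description of letters, not of a bound site.

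The first comparison asked how the family changes as control cells expand from subconfluence to overconfluence. Of the 10 genes, 9 passed the test, an adjusted p under 0.05 over all genes, with 4 higher and 5 lower, beside 56.8% of all genes tested. The median size of the change was 1.73 on the log2 scale for the members, and 0.411 for all genes. EREG and TGFA, both EGFR ligands, rose most, and NRG1 and its receptor ERBB3 fell most.

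TGFA was measured at 7.16, 8.52 and 7.84 CPM in the 3 subconfluent control libraries, 17.1, 16.8 and 16.7 at confluence and 72.4, 75.5 and 89.7 when overconfluent. No library of one stage overlapped another. The rise was 2.17-fold in the first step (log2 1.12 ± 0.11, standard error, adjusted p = 2.45e-09) and 4.77-fold in the second. EREG was at 1.16, 1.89 and 0.848 CPM, then 2.29, 1.72 and 1.71, then 13.8, 14.2 and 16.3. Its first 2 stages overlapped and did not differ by the test (log2 0.55 ± 0.31, adjusted p = 0.182), except without control subconfluent replicate 2 (log2 0.34 to 0.92 over the 6 fits), and most of the rise of 11.3-fold came after confluence (7.86-fold, log2 2.97 ± 0.15, adjusted p = 2.94e-16). BTC, another EGFR ligand, of low abundance, was at 0.398, 0.189 and 0.0292 CPM in subconfluent and 0.596, 1.05 and 0.484 CPM in overconfluent cells. Its rise of 3.23-fold rested on 1 to 43 reads per library, passed the test (adjusted p = 0.0225) and was lost when control subconfluent replicate 2 or 3 or control overconfluent replicate 2 was left out (log2 1.25 to 2.61 over all 6 such fits).

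The other ligands fell. NRG1 was at 18.6, 18.5 and 20.4 CPM in subconfluent, 12.1, 13.0 and 12.6 in confluent and 2.27, 1.74 and 2.01 in overconfluent control cells, again without overlap. It fell by 1.52-fold to confluence and by 6.18-fold after it, 9.54-fold in all (log2 -3.25 ± 0.13, adjusted p = 2.41e-17). HBEGF, which is made as a membrane precursor that is also the diphtheria toxin receptor, was at 16.6, 17.1 and 15.1 CPM, then 7.14, 7.50 and 9.96, then 7.26, 6.06 and 5.71. Its fall came mainly before confluence (1.98-fold, log2 -0.99 ± 0.12, adjusted p = 1.58e-07), while the later step did not pass the test (log2 -0.35 ± 0.15, adjusted p = 0.0617). That step did pass it with all 27 libraries in one fit, and without control confluent replicate 1 or 2 or control overconfluent replicate 1 (log2 -0.45 to -0.19 over the 6 fits). AREG was at 1.51, 1.21 and 0.556 CPM in subconfluent and 0.340, 0.294 and 0.435 CPM in overconfluent cells, and was 3.06-fold lower (log2 -1.61 ± 0.48, adjusted p = 0.00528). This call was lost without control subconfluent replicate 1, the library with the most AREG reads (log2 -1.92 to -1.30 over the 6 fits). Thus AREG and EREG, neighbors on chromosome 4, moved in opposite directions in the same libraries.

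Among the receptors, ERBB3 was at 17.5, 17.4 and 17.5 CPM in subconfluent, 11.2, 9.11 and 11.0 in confluent and 3.83, 4.27 and 3.17 in overconfluent control cells, and fell 4.63-fold (log2 -2.21 ± 0.12, adjusted p = 2.07e-14). Its stages did not overlap. ERBB2 was at 158 ± 3.48, 153 ± 3.05 and 115 ± 2.48 CPM (SD, n = 3). It differed little between the first 2 stages (log2 -0.05 ± 0.04) and was 1.31-fold lower in overconfluent than in confluent cells (adjusted p = 6.40e-08). In the GRCh37 annotation ERBB2 shares 5.53% and 1.40% of its exon length with its antisense neighbors MIEN1 and PGAP3. Reads there were left out if the authors' annotation, of a release not given, holds the same overlaps. EGFR followed neither direction. It was at 39.9, 37.5 and 38.6 CPM in subconfluent, 24.3, 25.9 and 22.7 in confluent and 44.3, 44.9 and 37.7 in overconfluent cells, a fall of 1.58-fold (log2 -0.66 ± 0.07, adjusted p = 2.81e-08) and a return of 1.76-fold (log2 0.82 ± 0.08, adjusted p = 4.75e-10). The end points overlapped and did not differ by the test, with an interval of the log2 difference of -0.01 to 0.28, although they did without control overconfluent replicate 3 (log2 0.09 to 0.21 over the 6 fits).

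ERRFI1, the inhibitor, was at 45.6, 50.0 and 45.0 CPM in subconfluent, 74.0, 66.4 and 68.6 in confluent and 159.6, 153 and 165 in overconfluent control cells. Every library of a later stage was above every library of an earlier one. The rise was 1.49-fold to confluence and 2.32-fold after it (log2 1.21 ± 0.05, adjusted p = 9.07e-18), 3.41-fold in all. Over the separate steps, 7 of 10 members passed the test between subconfluence and confluence, beside 35.5% of all genes, and 8 of 10 between confluence and overconfluence, beside 41.4%.

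**Figure D2:**
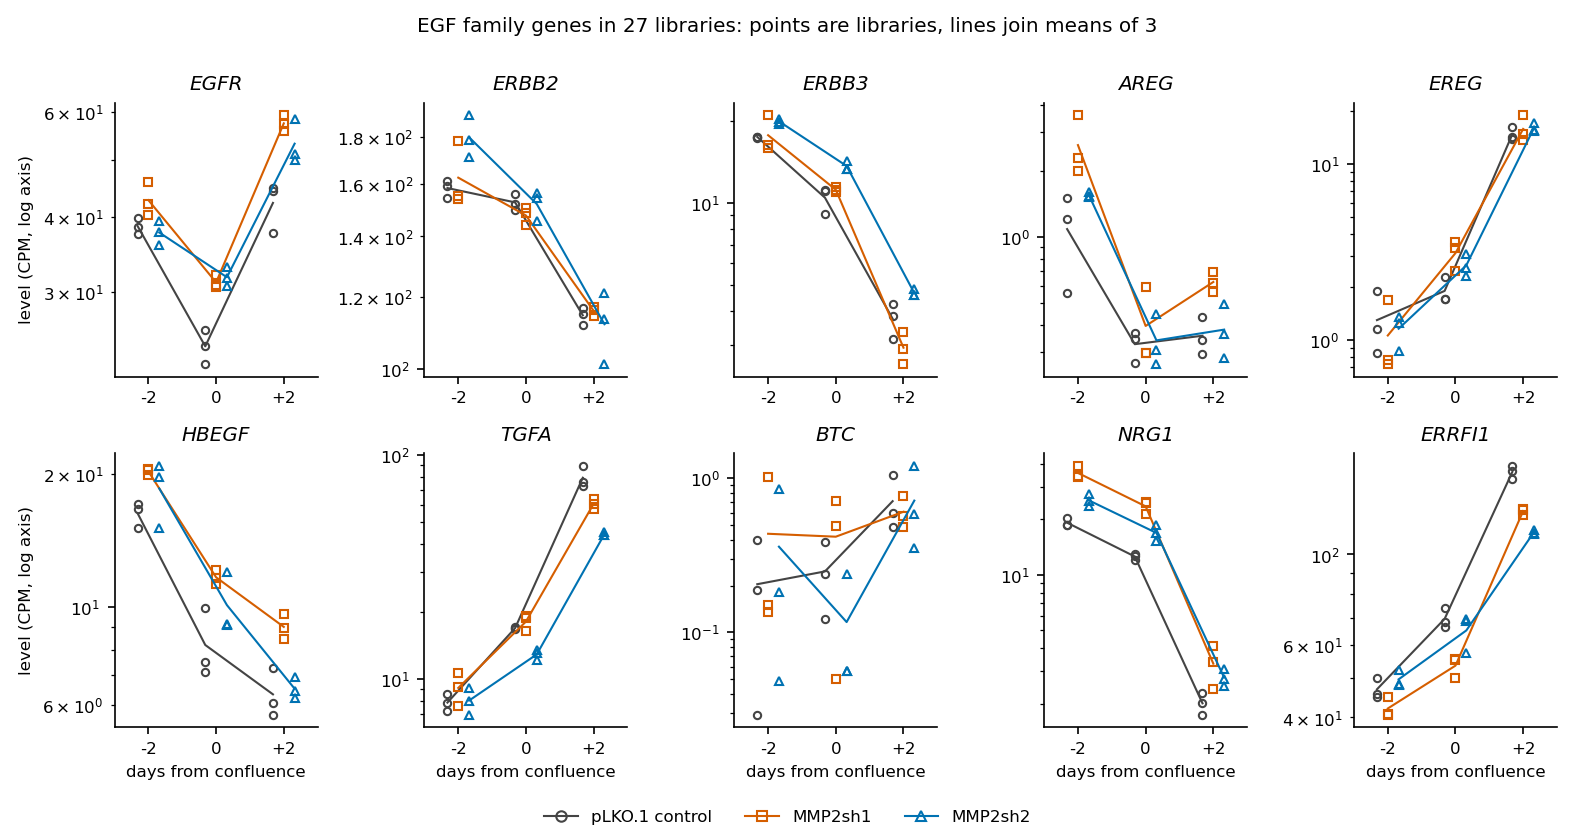
Level of each gene in every library (vertical axes, CPM, log scale) by days from confluence (horizontal axes), with pLKO.1 control, MMP2sh1 and MMP2sh2 as separate symbols, and lines joining means of 3 libraries. TGFA and ERRFI1 climb, and NRG1 and ERBB3 decline, in all 3 lines, and TGFA spreads between lines when overconfluent, from a mean of 79.2 CPM in control to 44.3 CPM in MMP2sh2.

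The second comparison asked how the family differs between each MMP2 depleted line and the control at the same stage. In MMP2sh1, 3 of the 9 members tested were called in subconfluent cells, 5 of 10 in confluent cells and 5 of 10 in overconfluent cells, beside 11.6%, 16.8% and 14.8% of all genes. In MMP2sh2 the counts were 2 of 9, 4 of 9 and 3 of 10, beside 11.0%, 12.9% and 6.32%. The 3 control libraries of a stage served both lines, so these counts are not independent of each other. The median size of the members' log2 difference ran from 0.18 to 0.37 over these 6 comparisons, next to 1.73 for the expansion of control cells. For all genes it ran from 0.13 to 0.16. In subconfluent MMP2sh2 the members' median was close to that of all genes (0.18 and 0.16). Called members differed by 1.13-fold (ERBB2) to 2.36-fold (AREG), and NRG1 and HBEGF were higher, and TGFA and ERRFI1 lower, in every comparison in which they passed the test. EGFR, HBEGF and NRG1 also stand in a list of genes that the study drew from these same libraries, so their direction is not independent evidence.

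NRG1 was the member with the largest precise difference. In subconfluent cells it was at 39.1, 33.9 and 34.2 CPM in the MMP2sh1 libraries and 27.3, 25.1 and 23.8 CPM in the MMP2sh2 libraries, against 18.6, 18.5 and 20.4 CPM in control, and the 3 groups did not overlap. It was 1.87-fold higher in MMP2sh1 (log2 0.90 ± 0.09, adjusted p = 5.12e-08) and 1.32-fold higher in MMP2sh2 (log2 0.40 ± 0.09, adjusted p = 0.00417). At confluence, with 24.4, 24.9 and 21.3 CPM in MMP2sh1 and 15.2, 18.6 and 16.9 CPM in MMP2sh2 against 12.1, 13.0 and 12.6 in control, the differences were 1.87-fold (adjusted p = 3.04e-09) and 1.33-fold (adjusted p = 0.00435). The second of these calls was lost without MMP2sh2 confluent replicate 2 (log2 0.34 to 0.48 over the 6 fits that leave out 1 library). In overconfluent cells NRG1 was low in all lines, at 2.41, 4.12 and 3.35, 3.10, 2.49 and 2.71 and, in control, 2.27, 1.74 and 2.01 CPM. MMP2sh1 was then 1.64-fold higher (adjusted p = 0.0422), a call that was lost under DESeq2 and without replicate 2 or 3 of either group (log2 0.52 to 0.90 over the 6 fits), and MMP2sh2 did not pass the test (log2 0.47 ± 0.24, adjusted p = 0.299). In the GRCh37 annotation NRG1 shares 8.59% of its exon length with a noncoding gene on the same strand, RP11-1002K11.1. Reads there were left out if the authors' annotation, of a release not given, holds the same overlap.

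HBEGF was higher in MMP2sh1 at each stage. It was at 20.4, 19.8 and 20.4 CPM in subconfluent MMP2sh1 cells against 16.6, 17.1 and 15.1 in control, at 11.2, 11.6 and 12.1 against 7.14, 7.50 and 9.96 at confluence, and at 9.63, 8.44 and 8.96 against 7.26, 6.06 and 5.71 in overconfluent cells, with no overlap at any stage. The differences were 1.24-, 1.42- and 1.42-fold (log2 0.31 ± 0.09, 0.51 ± 0.12 and 0.51 ± 0.14, adjusted p = 0.0281, 0.00285 and 0.0107). The subconfluent call was lost when any 1 of the 6 libraries was left out (log2 0.26 to 0.35), and the overconfluent call without control overconfluent replicate 2 or 3 (log2 0.43 to 0.61). In MMP2sh2, HBEGF was at 18.5 ± 3.02, 10.1 ± 1.65 and 6.53 ± 0.374 CPM (SD, n = 3), overlapped the control at every stage and passed neither edgeR's test nor that of DESeq2 at any, with an unadjusted p under 0.05 at 1 of them. At confluence it passed edgeR's test without control confluent replicate 3 (log2 0.14 to 0.45 over the 6 fits). The log2 difference at the last stage had an interval of -0.25 to 0.34.

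EGFR differed from control at the later stages in both lines. At confluence it was at 30.6, 32.0 and 30.8 CPM in MMP2sh1 and 30.6, 33.0 and 31.6 CPM in MMP2sh2, all above the control libraries at 24.3, 25.9 and 22.7. The differences were 1.28-fold (log2 0.35 ± 0.07, adjusted p = 8.45e-04) and 1.29-fold (log2 0.37 ± 0.08, adjusted p = 8.98e-04). When overconfluent it was at 55.9, 57.3 and 59.3 and 58.4, 50.0 and 51.0 CPM, against 44.3, 44.9 and 37.7 in control, 1.36-fold (adjusted p = 4.0e-05) and 1.26-fold (adjusted p = 0.00276) higher. The MMP2sh2 call was lost without control overconfluent replicate 3 or MMP2sh2 overconfluent replicate 1 (log2 0.25 to 0.37). In subconfluent cells neither line passed the test, with log2 differences of 0.14 ± 0.07 and -0.04 ± 0.07. The fall of EGFR from subconfluence to confluence was 1.58-fold in control, 1.37-fold in MMP2sh1 and 1.19-fold in MMP2sh2, and the difference between these falls was not tested.

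TGFA and ERRFI1 were lower in both knockdown lines in overconfluent cells, and each in 1 line at confluence. TGFA was at 57.7, 60.4 and 63.6 CPM in overconfluent MMP2sh1 and 45.3, 43.7 and 44.0 CPM in overconfluent MMP2sh2 cells, against 72.4, 75.5 and 89.7 CPM in control, and all 3 groups were apart. It was 1.31-fold lower in MMP2sh1 (log2 -0.39 ± 0.07, adjusted p = 2.15e-04) and 1.79-fold lower in MMP2sh2 (log2 -0.84 ± 0.07, adjusted p = 6.78e-12), the line with the milder loss of MMP2. The part of MMP2 in this order was not tested. At confluence TGFA was at 12.1, 13.4 and 13.1 CPM in MMP2sh2 against 17.1, 16.8 and 16.7 in control, 1.32-fold lower (adjusted p = 0.00340), while MMP2sh1 did not differ by the test (log2 0.09 ± 0.09). In subconfluent cells neither did (log2 0.22 ± 0.14 and 0.03 ± 0.14).

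ERRFI1 was at 55.5, 49.9 and 55.3 CPM in confluent MMP2sh1 cells against 74.0, 66.4 and 68.6 in control, 1.30-fold lower (log2 -0.38 ± 0.06, adjusted p = 1.03e-05). In MMP2sh2 at the same stage it was at 68.7, 69.4 and 57.6 CPM, overlapping the control (log2 -0.11 ± 0.06, adjusted p = 0.289). In overconfluent cells it was at 129, 125 and 129 CPM in MMP2sh1 and 115, 112 and 113 CPM in MMP2sh2 against 159.6, 153 and 165 in control, again 3 groups without overlap. It was 1.25-fold lower in MMP2sh1 (adjusted p = 8.52e-05) and 1.40-fold lower in MMP2sh2 (adjusted p = 1.80e-08).

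The remaining members gave isolated calls. AREG was at 2.00, 2.28 and 3.59 CPM in subconfluent MMP2sh1 cells against 1.51, 1.21 and 0.556 in control, 2.36-fold higher (log2 1.24 ± 0.33, adjusted p = 0.0132). The call was lost without control subconfluent replicate 3 or MMP2sh1 subconfluent replicate 3 (log2 0.94 to 1.55). EREG was 1.63-fold higher in confluent MMP2sh1 cells (3.32, 2.46 and 3.59 CPM against 2.29, 1.72 and 1.71, adjusted p = 0.0312), a call lost without control confluent replicate 2 or 3 or MMP2sh1 confluent replicate 1 or 3 (log2 0.61 to 0.86). ERBB3 was 1.29-fold higher in confluent MMP2sh2 cells (13.4, 14.3 and 13.3 CPM against 11.2, 9.11 and 11.0, adjusted p = 0.0178), which did not hold without control confluent replicate 2 or MMP2sh2 confluent replicate 2 (log2 0.28 to 0.43). ERBB2 was 1.13-fold higher in subconfluent MMP2sh2 cells (171, 179 and 190.4 CPM against 159, 154 and 161, adjusted p = 0.0304), lost without any 1 of the libraries except MMP2sh2 subconfluent replicate 1 (log2 0.14 to 0.22). In the other 5 comparisons of a knockdown line with control, the log2 difference of ERBB2 lay between -0.05 and 0.04. BTC was too thin to enter the test in 3 of the 6 comparisons and passed it in none, by edgeR or DESeq2, nor with an unadjusted p, with log2 differences of 0.67 ± 0.72, -0.23 ± 0.47 and 0.01 ± 0.49 in the others.

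**Figure D3:**
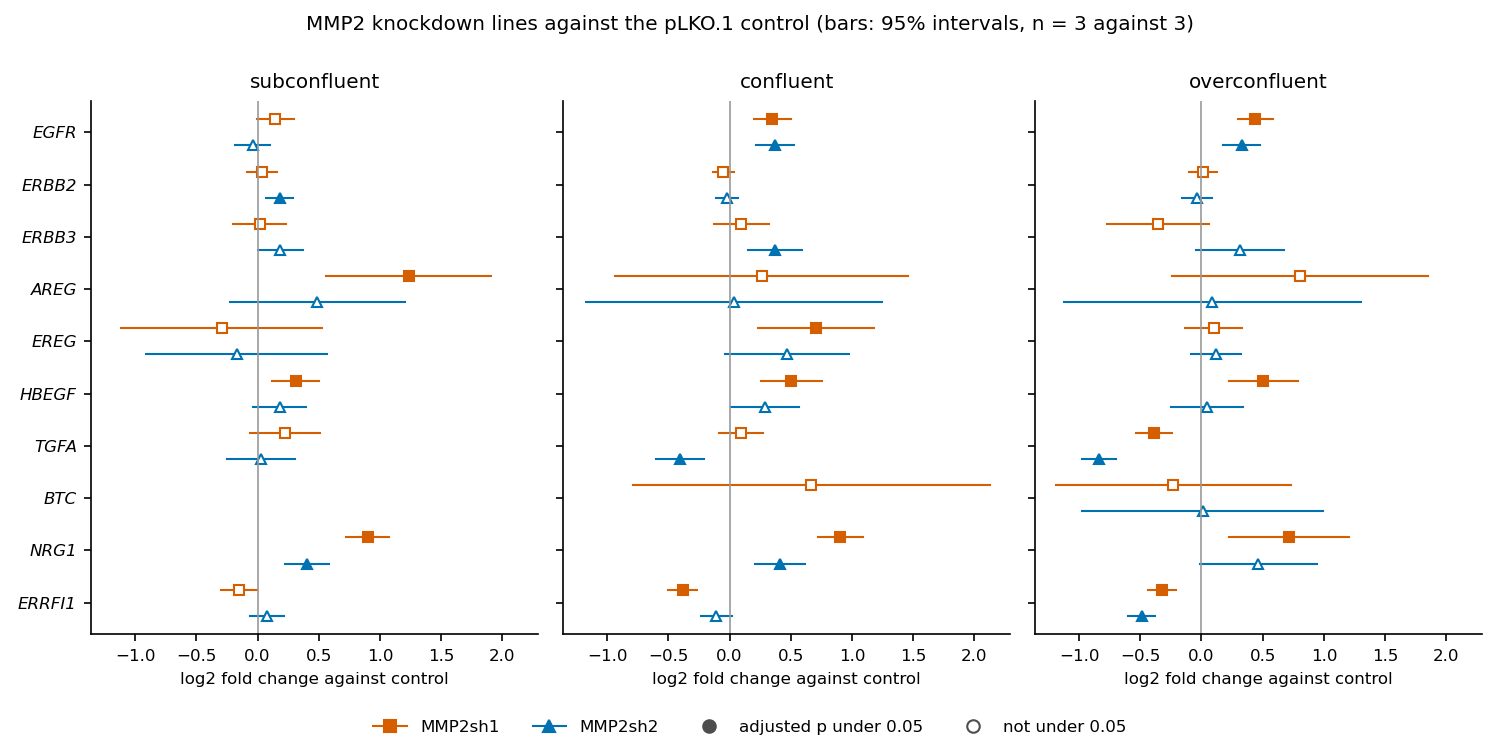
Log2 fold change of each gene in MMP2sh1 and MMP2sh2 against the pLKO.1 control (horizontal axes, bars 95% intervals, n = 3 against 3) at each stage, with filled symbols for an adjusted p under 0.05. NRG1 sits at 0.90 in MMP2sh1 and 0.40 in MMP2sh2 in subconfluent cells, and TGFA at -0.39 and -0.84 in overconfluent cells, while the bars of AREG and BTC are wide.

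The third comparison asked whether the family responds to expansion in the depleted lines as it does in control. From subconfluence to overconfluence, 9 of 10 members passed the test in MMP2sh1 and 9 of 10 in MMP2sh2, beside 54.9% and 54.7% of all genes. The counts were 8 of 10 for the first step and 8 of 10 for the second in MMP2sh1 (32.7% and 46.0% of all genes), and 9 of 9 and 9 of 10 in MMP2sh2 (30.3% and 45.5%). NRG1 was 10.9-fold lower in overconfluent than in subconfluent MMP2sh1 cells and 9.13-fold lower in MMP2sh2, next to 9.54-fold in control. EREG was 14.9-fold and 13.9-fold higher, next to 11.3-fold. ERBB3 was 6.03-fold and 4.25-fold lower, and HBEGF 2.25-fold and 2.82-fold lower. In both depleted lines the first rise of EREG, from subconfluence to confluence, also passed the test (log2 1.56 ± 0.31 and 1.19 ± 0.28). It did not pass in control, and the difference between lines in this step was not tested.

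The difference between the responses was tested as an interaction of line and stage over 12 libraries. In MMP2sh1 1 of 10 members passed it, beside 7.40% of all genes, and in MMP2sh2 3 of 10, beside 4.98%. TGFA passed in both lines. Its rise was 6.60-fold in MMP2sh1 and 5.57-fold in MMP2sh2 next to 10.2-fold in control, so that the log2 rise was smaller than in control, with differences of -0.62 ± 0.14 (adjusted p = 0.00512) and -0.87 ± 0.13 (adjusted p = 5.04e-05), written as depleted line minus control. ERRFI1 rose 2.30-fold in MMP2sh2 next to 3.41-fold in control (log2 difference -0.57 ± 0.08, adjusted p = 2.59e-05), whereas its difference in MMP2sh1 did not pass (-0.16 ± 0.08, adjusted p = 0.287). EGFR, whose end points overlapped in control, was 1.42-fold higher in overconfluent than in subconfluent MMP2sh2 cells (log2 difference of the responses 0.37 ± 0.11, adjusted p = 0.0374). This interaction was lost when any 1 of 6 libraries was left out (control subconfluent replicates 1 and 3, control overconfluent replicate 3, MMP2sh2 subconfluent replicates 1 and 2, MMP2sh2 overconfluent replicate 1; log2 0.30 to 0.42), and that of MMP2sh1 did not pass (0.30 ± 0.10, adjusted p = 0.0758). For NRG1 the intervals of the difference were -0.59 to 0.23 in MMP2sh1 and -0.30 to 0.43 in MMP2sh2, on the log2 scale.

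**Figure D4:**
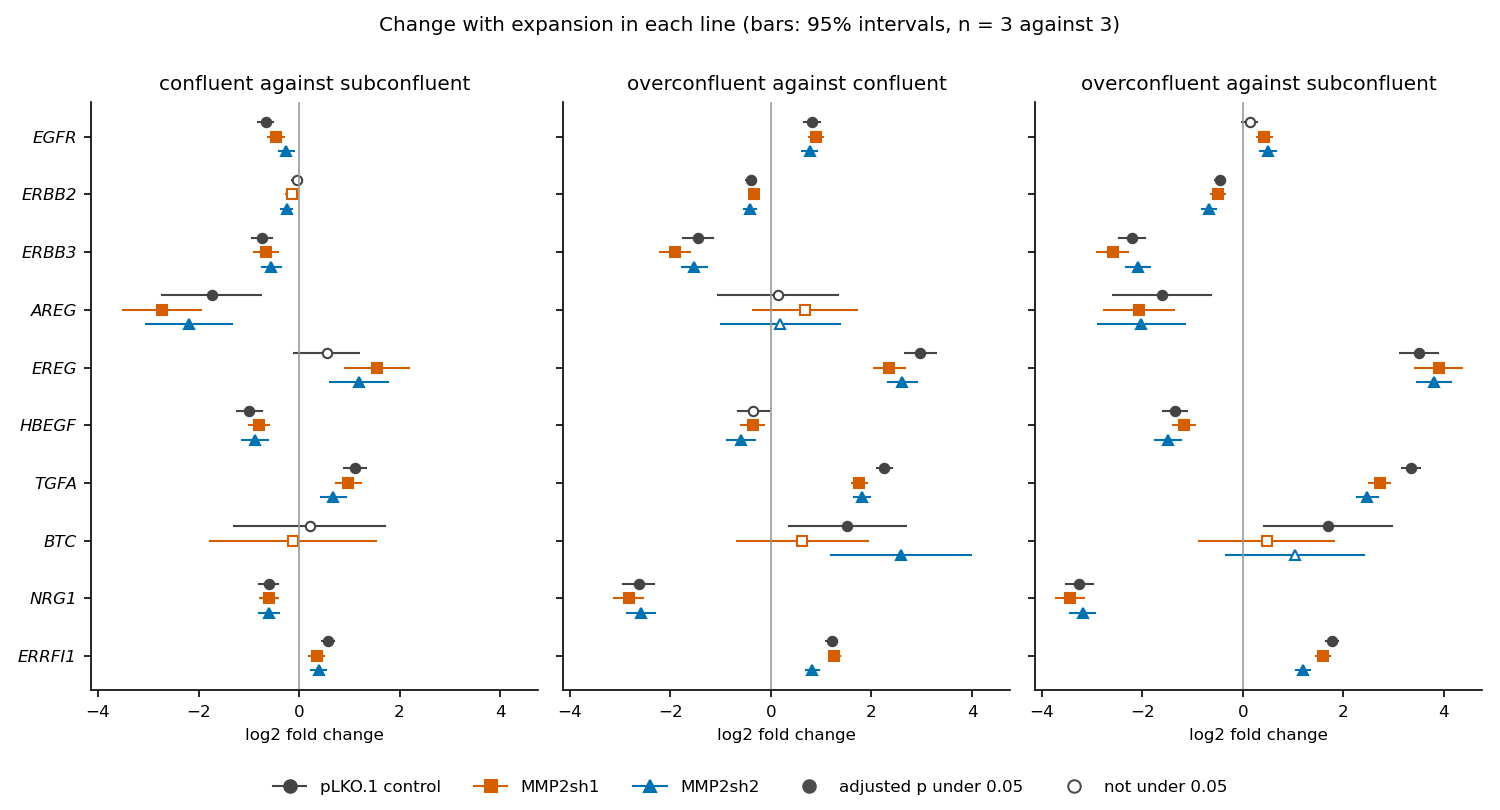
Log2 fold change of each gene between stages (horizontal axes, bars 95% intervals, n = 3 against 3) in the pLKO.1 control, MMP2sh1 and MMP2sh2, for each step and for the whole expansion, with filled symbols for an adjusted p under 0.05. TGFA rises by 3.35 in control, 2.72 in MMP2sh1 and 2.48 in MMP2sh2 over the whole expansion, while NRG1 moves between -3.44 and -3.19.

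The depleted lines were also compared with each other. MMP2sh1 and MMP2sh2 differed in 2 of 9 members when subconfluent, 4 of 9 at confluence and 3 of 10 when overconfluent, beside 10.7%, 18.5% and 7.86% of all genes. NRG1 was higher in MMP2sh1 at the first 2 stages, 1.41-fold and 1.41-fold. TGFA was higher in MMP2sh1 at the last 2, 1.42-fold and 1.36-fold. ERBB3 was lower in MMP2sh1 at the same stages, 1.21-fold and 1.59-fold. The first of these ERBB3 calls was lost under every alternative and without any 1 library (log2 -0.29 to -0.25), and the second without replicate 2 or 3 of MMP2sh1 or replicate 1 or 2 of MMP2sh2 (log2 -0.78 to -0.58). EGFR did not differ by the test at any stage, with an interval of -0.16 to 0.13 on the log2 scale at confluence and -0.03 to 0.25 in overconfluent cells.

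Ordered over all 9 groups of line and stage, the highest group mean of NRG1 was 17.8 times the lowest, that of EREG 15.1 times and that of TGFA 10.1 times. The corresponding ratios were 8.04 for AREG, 6.77 for ERBB3, 6.15 for BTC, 3.78 for ERRFI1, 3.19 for HBEGF, 2.36 for EGFR and 1.61 for ERBB2. NRG1 was highest in subconfluent MMP2sh1 and lowest in overconfluent control cells, and 3 of its 8 neighboring pairs in this order overlapped. TGFA ran from the subconfluent groups, which overlapped one another, through confluent MMP2sh2 and then confluent control and MMP2sh1, to overconfluent MMP2sh2, MMP2sh1 and control in rising order, and the last 3 were apart from one another. ERRFI1 ended in the same rising order of MMP2sh2, MMP2sh1 and control. EREG fell into a low set of the 3 subconfluent groups and confluent control, a middle pair of confluent MMP2sh2 and MMP2sh1, and a high set of the 3 overconfluent groups, with overlap between neighbors inside each set and none between neighboring sets. EGFR was lowest in confluent control, and its 2 highest groups, overconfluent MMP2sh2 and MMP2sh1, overlapped each other and lay above every other group. For ERBB2 7 of 8 neighboring pairs overlapped, and for BTC all 8.

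The genes around the receptors were counted from lists chosen for their textbook roles, with earlier results of these data known. Of 11 genes of ligand shedding, 4 rose and 4 fell over the expansion of control cells, beside 56.8% of all genes called in either direction, with a median log2 change of 0.0091 against 0.028 for all genes. ADAM12, a protease reported to cut HBEGF, fell from 72.6 ± 1.92 to 12.4 ± 1.35 CPM (log2 -2.55 ± 0.08, adjusted p = 2.92e-20). RHBDF1, an inactive rhomboid that escorts ADAM17 to the surface, rose from 38.7 ± 1.5 to 76.0 ± 4.61 CPM (log2 0.98 ± 0.06), and ADAM8 rose with a log2 change of 0.87 ± 0.19. RHBDF2, the related escort, was higher in MMP2sh1 than in control at each stage, with log2 differences of 0.42 ± 0.07, 0.30 ± 0.07 and 0.36 ± 0.07. In MMP2sh2 RHBDF2 passed the test in subconfluent cells alone (0.24 ± 0.08, adjusted p = 0.0431). In all, 7, 3 and 2 of the 11 were called in MMP2sh1 (11.6%, 16.8% and 14.8% of all genes) and 5, 2 and 3 in MMP2sh2 (11.0%, 12.9% and 6.32%), in order of stage.

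Of 26 genes of signal transmission, which carry the signal from the receptors to the RAS and PI3 kinase pathways, 7 rose and 11 fell over the expansion of control cells (18 of 26 called, beside 56.8% of all genes), with a median log2 change of -0.092. HRAS, PTPN11 (the phosphatase SHP2) and PIK3CB (a catalytic subunit of PI3 kinase) had the largest called changes, at -0.78 ± 0.06, -0.60 ± 0.05 and -0.63 ± 0.08. Against control, 2, 5 and 6 of the 26 were called in MMP2sh1 (11.6%, 16.8% and 14.8% of all genes) and 5, 5 and 2 in MMP2sh2 (11.0%, 12.9% and 6.32%), shares that lay on either side of the background. GAB2, a docking protein, was higher in MMP2sh2 at each stage (log2 0.26 ± 0.08, 0.37 ± 0.08 and 0.40 ± 0.09).

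The list grouped under restraint of receptors and ERK, to which ERRFI1 would belong by role, held 24 genes. Not all of them, USP8 and SOCS3 for example, are direct inhibitors of EGFR or ERK. In control cells 21 of the 24 entered the test. Of these 16 rose and 4 fell with expansion, beside 56.8% of all genes called, with a median log2 change of 0.38 against 0.028 for all genes. SPRY4, SPRY2 and DUSP6, feedback inhibitors that ERK signaling induces, rose by 2.93 ± 0.15, 1.83 ± 0.11 and 2.35 ± 0.45 on the log2 scale, DUSP6 from a level of 0.271 ± 0.0831 CPM. RNF41, a ubiquitin ligase that turns over ERBB3, fell with a log2 change of -0.18 ± 0.06. It was lower in MMP2sh1 than in control at each stage (log2 -0.35 ± 0.08, -0.42 ± 0.07 and -0.39 ± 0.08), and was not called in MMP2sh2. SOCS3 was lower in MMP2sh1 at each stage as well (log2 -0.25 ± 0.07, -0.39 ± 0.06 and -0.32 ± 0.07), and in MMP2sh2 at confluence (log2 -0.37 ± 0.06). Of the 21 genes, 5, 7 and 5 were called in MMP2sh1 (11.6%, 16.8% and 14.8% of all genes) and 5, 6 and 1 in MMP2sh2 (11.0%, 12.9% and 6.32%).

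Of 14 ERK target genes, 10 rose and 3 fell over the expansion of control cells, beside 56.8% of all genes called, with a median log2 change of 1.32. PHLDA1 rose from 22.6 ± 2.19 to 358 ± 8.75 CPM (log2 4.0 ± 0.06), FOS from 6.15 ± 0.593 to 26.1 ± 1.08 CPM (log2 2.09 ± 0.10) and EGR2 from 0.554 ± 0.230 to 1.76 ± 0.318 CPM (log2 1.71 ± 0.39). MYC, a growth-promoting transcription factor of the same list, fell by 3.17-fold (log2 -1.66 ± 0.06). Against control, PHLDA1 was lower in both depleted lines at all 3 stages, with log2 differences of -0.69 ± 0.13, -1.07 ± 0.07 and -0.48 ± 0.05 in MMP2sh1 and -0.46 ± 0.09, -0.93 ± 0.07 and -0.45 ± 0.05 in MMP2sh2. MYC was higher in MMP2sh1 at each stage (log2 0.31 ± 0.05, 0.55 ± 0.05 and 0.26 ± 0.07), as was VGF (log2 0.44 ± 0.07, 0.13 ± 0.05 and 0.36 ± 0.05). In MMP2sh2, MYC was higher at confluence and when overconfluent (log2 0.44 ± 0.05 and 0.25 ± 0.07), and VGF when overconfluent (log2 0.20 ± 0.05). The list as a whole moved both ways in the depleted lines, with 5 of 14 genes higher and 3 lower in subconfluent MMP2sh1, 3 of 13 higher and 5 lower at confluence, and 3 of 14 higher and 3 lower when overconfluent, beside 11.6%, 16.8% and 14.8% of all genes called in either direction. In MMP2sh2 the counts were 4 higher and 2 lower, 3 and 3, and 3 and 4, of 14 at each stage, beside 11.0%, 12.9% and 6.32%.

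**Figure D5:**
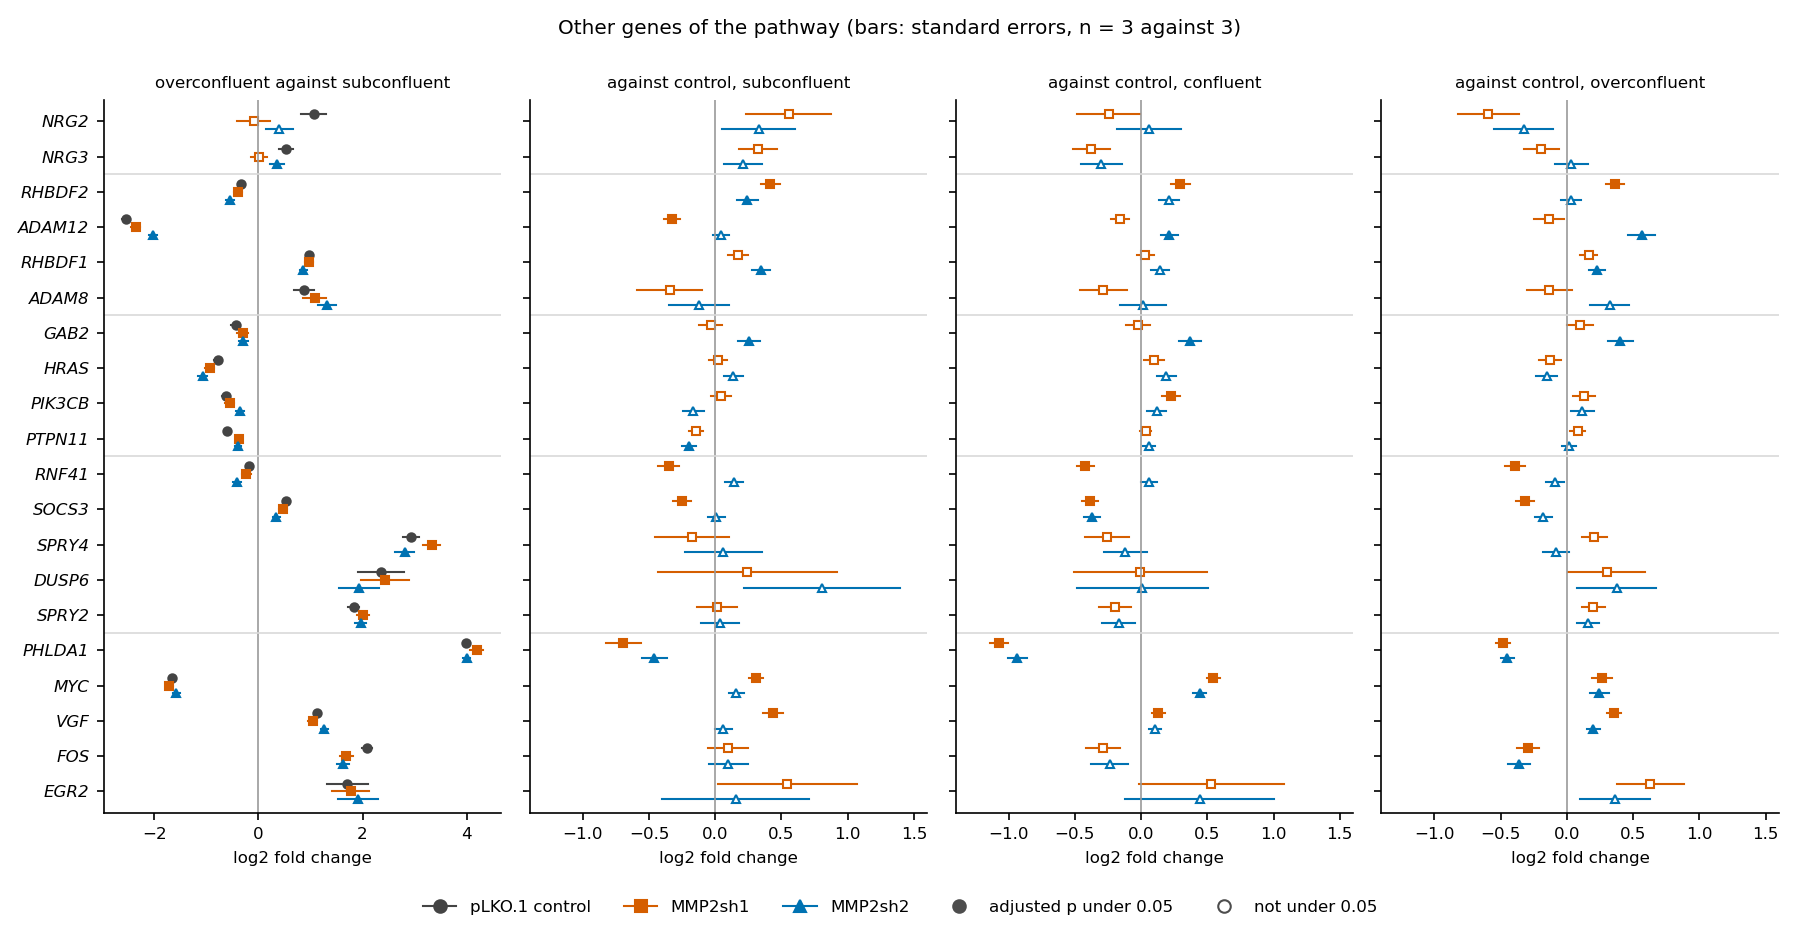
Log2 fold change (horizontal axes, bars standard errors, n = 3 against 3) of the named genes of the pathway lists, with horizontal rules between lists, for the expansion of each line and for each depleted line against the pLKO.1 control at each stage. PHLDA1 rises by 4.0 over the expansion of control cells, and lies at -1.07 in MMP2sh1 and -0.93 in MMP2sh2 against control at confluence.

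Of the 6 unlisted relatives, 4 entered the test in control cells, and 2 of them were called, beside 56.8% of all genes. Both rose with expansion: NRG2 (log2 1.06 ± 0.24, adjusted p = 4.85e-04) and NRG3 (log2 0.54 ± 0.13, adjusted p = 0.00126), while NRG1 of the same neuregulin family fell. EGF (log2 0.42 ± 0.29) and NRG4 (log2 -0.12 ± 0.24) did not pass. In the 24 tests of a relative in a knockdown line against control, none was called by edgeR. Among all genes 6.32% to 16.8% were called in these comparisons. DESeq2 gave an adjusted p for 21 of the 24 and called none. By edgeR, 4 of the 24 had an unadjusted p under 0.05. The largest of those differences was that of EGF in subconfluent MMP2sh2 cells, with a log2 value of 0.69 ± 0.28.

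The genes whose pattern over the 27 libraries was most like that of a member were taken by Pearson correlation of log2 CPM among 15136 genes. For NRG1 they were GSG1 (r = 0.988), ACLY (r = 0.987) and DYSF (r = 0.986). For HBEGF they were PEA15 (r = 0.970), LRRC59 (r = 0.969) and RAB35 (r = 0.960), and for EGFR they were S100A16 (r = 0.942), FGF1 (r = 0.938) and SEL1L3 (r = 0.926). The 27 points share lines, stages and library depth, so these values describe likeness of pattern across the 9 groups.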

How the data were processed

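Poly(A) RNA of 27 U2OS cultures was measured. Per the study's methods and the labels, Trim Galore 0.6.0 trimmed the paired reads, STAR 2.7.3a placed them on hg19, and HTSeq 2.0.0 assigned them to exons (union mode, strand not used). The annotation release is not given in the sources used here. The deposited files hold the authors' unnormalized counts for each gene symbol, with reads on several genes or places left out, so overlapping and near-identical genes are uncertain. HTSeq's 5 summary lines (16.8% to 19.1% of reads) stayed out of library sizes and tests. Samples were grouped by their labels. Each comparison was fitted on its own 6 libraries (12 for an interaction) with edgeR 4.0.16 in R 4.3.3, by its quasi-likelihood test after TMM scaling and filterByExpr (at least 10 counts, total at least 15), with Benjamini-Hochberg adjustment over all genes tested. The standard error is the log2 fold change divided by the square root of F, and intervals are 95%. Levels are CPM with TMM factors over 27 libraries, per kilobase of exon union of the GRCh37 annotation where genes are compared. Scripts were tested on simulated data. Alternatives were DESeq2 1.42.0, other scaling and filters, 1 fit of all libraries, a replicate block and leaving out each library. The 10 genes, the pathway lists and the rule for naming genes (all members, genes called at all 3 stages in a depleted line, the 3 largest called changes per list over control expansion, and the 3 most alike for EGFR, HBEGF and NRG1) were chosen with earlier results of these data known. Some genes that these rules name are not reported here.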

Additional observations from a re-analysis of the deposited data

Results flagged for a closer look

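In 13 results, members differed between lines by a test of the difference itself, and all are edgeR quasi-likelihood values adjusted over all genes. Of these, 9 came from 28 tests of level between the depleted lines at one stage, beside 7.86% to 18.5% of all genes called. The other 4 came from 20 tests of a difference in response, beside 4.98% and 7.40%. Directly compared, MMP2sh1 and MMP2sh2 differed in NRG1 by 0.49 on the log2 scale when subconfluent (adjusted p = 3.89e-04) and by 0.50 at confluence (adjusted p = 9.03e-05), higher in MMP2sh1 in 3 of 3 libraries each time. TGFA was higher in MMP2sh1 by 0.50 at confluence (adjusted p = 1.79e-04) and by 0.45 when overconfluent (adjusted p = 5.70e-05), again without overlap. HBEGF was higher in overconfluent MMP2sh1 by 0.46 (adjusted p = 0.0276). ERRFI1 differed by -0.24 when subconfluent (adjusted p = 0.0445) and -0.27 at confluence (adjusted p = 0.00231), lower in MMP2sh1. ERBB3 differed by -0.27 at confluence (adjusted p = 0.0493) and -0.67 when overconfluent (adjusted p = 0.0233), also lower in MMP2sh1. The confluent ERBB3 call was lost under every alternative and without any 1 library, the overconfluent one without any 1 of 4 libraries, and the HBEGF call and the subconfluent ERRFI1 call without any 1 of 5 libraries each. MMP2 itself was lower in MMP2sh1 than in MMP2sh2 by -1.84, -1.41 and -1.52 at the 3 stages, and its part in these differences was not tested.

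Between expansion in a depleted line and expansion in control, TGFA differed by -0.62 in MMP2sh1 (adjusted p = 0.00512) and by -0.87 in MMP2sh2 (adjusted p = 5.04e-05), ERRFI1 by -0.57 in MMP2sh2 (adjusted p = 2.59e-05) and EGFR by 0.37 in MMP2sh2 (adjusted p = 0.0374). These interactions share the control libraries. In the separate comparison of overconfluent cells, TGFA was lower than control in both depleted lines. It was furthest below control in MMP2sh2, where MMP2 was less depleted, and the part of MMP2 in this order was not tested.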

How the results depend on the processing

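Of 111 calls of members over the 20 comparisons, 105 were kept under every alternative and 91 also when each library was left out, and 10 of the 83 values not called became called in some fit. No call changed direction in these fits. Expansion within a line gave 76 of the 111 calls, from 89 tests, so the pooled counts rest mainly on expansion. Knockdown lines against control gave 22 calls, from 57 tests. In MMP2sh1, calls against control lost without 1 library were among those of AREG, EREG, HBEGF and NRG1. In MMP2sh2 they were among those of EGFR, ERBB2, ERBB3 and NRG1. One count of called members moved by more than 1.5 times under another setting, MMP2sh1 against MMP2sh2 when subconfluent, which had 1 member without a filter on low counts (ERRFI1 was lost). Leaving out 1 library gave 1 to 2 called members in subconfluent MMP2sh1 against control, 3 to 5 in overconfluent MMP2sh1, 1 to 2 in subconfluent MMP2sh2, 2 to 5 in confluent MMP2sh2, 1 to 2 between the depleted lines when subconfluent and 1 to 2 between them when overconfluent. The smallest of these values came without replicate 3 of either group for subconfluent MMP2sh1, without control replicate 2 or 3 for overconfluent MMP2sh1, without any library but replicate 1 of MMP2sh2 for subconfluent MMP2sh2, and without replicate 2 of MMP2sh2 for confluent MMP2sh2. Between the depleted lines it came without replicate 1 or 2 of either line when subconfluent, and without replicate 3 of MMP2sh1 or replicate 1 or 2 of MMP2sh2 when overconfluent.

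Calls lost under an alternative were NRG1 in overconfluent MMP2sh1 (DESeq2 and the replicate block), HBEGF in subconfluent MMP2sh1 (all libraries in one fit), BTC in control expansion (all libraries in one fit, and DESeq2 for its second step), ERRFI1 between subconfluent depleted lines (no filter) and ERBB3 between confluent depleted lines, which no alternative kept (log2 -0.29 to -0.27) and each of 6 left-out libraries removed. HBEGF between overconfluent depleted lines was lost without every library but MMP2sh1 replicate 2 (log2 0.41 to 0.51), and ERBB3 at that stage without replicate 2 or 3 of MMP2sh1 or 1 or 2 of MMP2sh2 (log2 -0.78 to -0.58). ERRFI1 between subconfluent depleted lines was lost without every library but MMP2sh2 replicate 3 (log2 -0.28 to -0.20). In the steps of expansion, the fall of AREG to confluence in control was lost without subconfluent replicate 1 (log2 -2.04 to -1.43), the later rise of BTC in control without confluent replicate 1 or 3 or overconfluent replicate 1 or 2 (log2 1.12 to 1.98), and in MMP2sh2 the first fall of EGFR without confluent replicate 1 (log2 -0.29 to -0.22) and the later rise of BTC without overconfluent replicate 1 (log2 2.00 to 3.63). The cause of these losses was not tested beyond the smaller number of libraries. Replicate numbers did not pair the samples, since in none of 18 comparisons did every same-numbered pair correlate over 0.1 (r -0.0944 to 0.149). With the replicate block, 4 members were called in overconfluent MMP2sh1 against control where 5 were called without it, and no count moved by over 1.5 times. Depth limits AREG, with 10 to 147 reads, and BTC, with 1 to 50.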
